A study of Homo sapiens with 10 samples.

Results

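The 10 genes described here are the epidermal growth factor receptor EGFR, 4 of its ligands and 5 feedback inhibitors of the receptor and of ERK signaling, in RPE-1 cells treated with sulforaphane (SFN). They were taken by gene symbol from the table of deposited counts, which holds 28380 genes, and all 10 were found in it. RPE-1 is an established line of human retinal pigment epithelial cells immortalized with telomerase. The study compared cells given SFN, an isothiocyanate of cruciferous vegetables, with cells given only its vehicle DMSO, to test whether SFN acts on cells as fasting does, and read the transcripts altered by an acute exposure. Both groups were kept in complete medium for 4 h, with 25 µM SFN in the treated group, and each comprised 5 replicates. No genetic change distinguishes the groups. The methods name a 3′ end library kit (Lexogen QuantSeq) and the sample labels only Illumina protocols, so whether a count marks a transcript end or also grows with transcript length is not settled, and levels are not compared between genes. The total count ranged from 15689294 to 20666692 in DMSO and from 12375860 to 17308706 in SFN.

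EGFR is a receptor tyrosine kinase at the cell surface. Its ligands HBEGF, AREG, EREG and TGFA are made as membrane-anchored precursors that metalloproteases such as ADAM17 release, and the activated receptor signals through RAS, RAF, MEK and ERK to the nucleus. The pathway is known for restraining itself, because ERK signaling induces genes whose products dampen it. ERRFI1, also known as MIG6, binds the kinase domain of EGFR and inhibits it. The Sprouty proteins SPRY2 and SPRY4 and the Sprouty-related proteins SPRED1 and SPRED2 act further down, between the receptor and RAF, and the SPRED proteins bring the RAS inhibitor neurofibromin to the membrane. In epithelial cells, EGFR signaling is known for its part in survival, migration and wound repair.

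The feedback inhibitors rose, with the exception of SPRED1, and EGFR itself was lower on average but not past the threshold. By edgeR, ERRFI1 had the largest change of the 8 genes tested, a 2.96-fold increase, followed by SPRY4 at 2.51-fold. SPRY2 rose 1.94-fold and SPRED2 1.81-fold, and SPRED1 was not significantly changed. With quantile normalized limma-voom the log2 fold change was larger for SPRY4, at 1.73, than for ERRFI1, at 1.51. Of the ligands, HBEGF rose 1.35-fold, AREG was not significantly changed, and EREG and TGFA were too low for the test across all genes. A quasi-likelihood test in edgeR was run on the 8 genes with enough counts, with significance at an adjusted p under 0.05. It found 5 increased and 0 decreased (0 decreased also at an unadjusted p under 0.05 and by DESeq2). With limma and sample quality weights 1, EGFR, was decreased, in a fit where 30.2% of all genes were. The number increased was 3 with library size as the only scaling and 3 without DMSO replicate 3 or without DMSO replicate 5, where the calls of HBEGF and SPRED2 were lost, and 5 without DMSO replicate 1. It was 4 without a low-count filter, and 4 when any library other than DMSO replicates 1, 3 and 5 was left out. Over 18 alternative settings the SPRED2 call was kept in 8 and the HBEGF call in 14. For comparison, 9.07% of all 13378 genes tested were significantly increased, 13.9% decreased and 23.0% changed in either direction. Without DMSO replicate 1, a library described next, EGFR was significantly decreased as well, in a fit where 46.1% of all genes were called.

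The first DMSO replicate stood apart from the other DMSO libraries across the transcriptome. Over all tested genes, 44.5% were lower in it than in every other DMSO library and 40.5% higher. Were the 5 DMSO libraries alike, each would be lowest in about 1 of 5 genes and highest in about 1 of 5. The same shares were not determined for the other DMSO libraries. Of the 10 genes here, 7 were lower in it than in every other DMSO library and AREG and EREG were higher. The fold changes of the 8 tested genes are therefore given with and without it. The methods state that all experimental data came from independent replicates. The labels do not say whether these were separate cultures, so p-values measure the spread between these samples. KRT8 and KRT18, keratins of simple epithelia, had at least 5340 and 2857 counts in DMSO libraries and at least 4835 and 2396 in SFN libraries. The visual cycle genes RPE65 and RLBP1, which define mature pigment epithelium, had at most 3 and 4 counts in any library. Of the other markers of pigment epithelium, MITF, a transcription factor of pigment cells, fell from 50.8 ± 4.95 to 23.4 ± 2.78 CPM (SD, n = 5 each; log2 fold change -1.12, SE 0.12, edgeR adjusted p = 5.3e-05) and OTX2, a transcription factor of eye development, from 14.04 ± 2.14 to 9.01 ± 0.286 CPM (log2 fold change -0.64, SE 0.12, edgeR adjusted p = 0.0029), each with every SFN library below every DMSO library. The channel gene BEST1 went from 18.8 ± 13.7 to 42.4 ± 36.7 CPM with overlapping groups (edgeR adjusted p = 0.16, and 0.00961 without DMSO replicate 1, over a range of 0.000541 to 0.514). Over the 3 endothelial markers the sum ranged from 0 to 9 counts in DMSO and from 0 to 5 in SFN. It ranged over the 2 immune markers present in the table from 0 to 11 and from 3 to 16. Over the 4 fibroblast markers it ranged from 196 to 380 and from 142 to 236. Of these 4, COL1A1 had 167 to 356 counts in DMSO and 124 to 224 in SFN, and DCN, LUM and PDGFRA had at most 13, 15 and 17. The part of all these markers in the results was not tested.

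**Figure D1:**
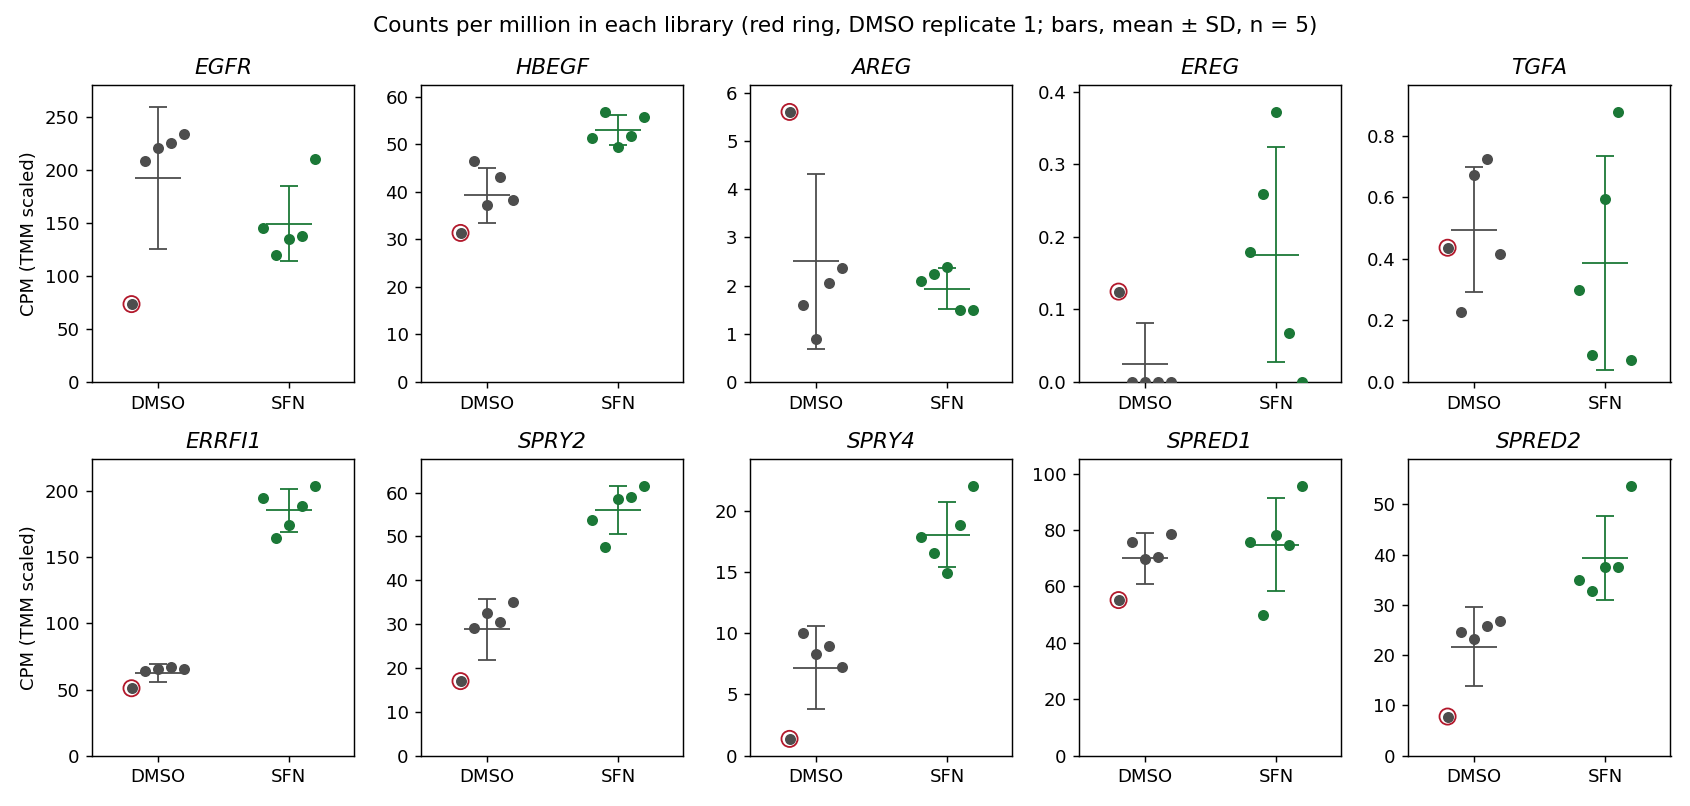
CPM, with library sizes adjusted by TMM, in each library for the 10 genes, with the mean and SD of each group of 5 and a red ring around DMSO replicate 1. Each panel has its own axis from 0. The 5 SFN libraries lie above the 5 DMSO libraries for HBEGF, ERRFI1, SPRY2, SPRY4 and SPRED2, and the groups overlap for the other genes.

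Promoter sequences of RefSeq (GRCh38.p14), from 250 bases before the transcription start to 50 after it, were matched by symbol for all 10 genes and searched on both strands. The motifs were AP-1 (TGANTCA), the cyclic AMP response element CRE (TGACGTCA), EGR (GCGNGGGCG), an NRF2 element (TGACNNNGC), an ATF4/CHOP element (TGATGNAA), the CArG box of serum response factor and an ETS motif (CCGGAAGT). The promoters with a match are shown 5′ to 3′ on the strand of the gene, with matches in capitals. The promoter of ERRFI1, which by edgeR rose most of the 8 genes tested, is shown in the same way. In the SPRY2 promoter, chr13:80341077-80341376 on the minus strand, both matches are to EGR, starting at -134 and -41. In that of SPRY4, chr5:142324198-142324497 on the minus strand, the match at -228 is to the NRF2 element and that at -195 to EGR. The start used by RefSeq lies inside the GENCODE gene. In that of AREG, chr4:74444886-74445185 on the plus strand, the match at -65 is to CRE, which reads the same on both strands. The ERRFI1 window is chr1:8026260-8026559 on the minus strand.
ERRFI1: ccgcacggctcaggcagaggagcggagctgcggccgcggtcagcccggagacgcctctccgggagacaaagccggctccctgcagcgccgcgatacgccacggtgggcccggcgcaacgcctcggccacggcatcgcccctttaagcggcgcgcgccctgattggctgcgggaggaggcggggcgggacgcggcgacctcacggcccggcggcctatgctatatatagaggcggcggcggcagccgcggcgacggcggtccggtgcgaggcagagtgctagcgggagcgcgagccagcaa
SPRY2: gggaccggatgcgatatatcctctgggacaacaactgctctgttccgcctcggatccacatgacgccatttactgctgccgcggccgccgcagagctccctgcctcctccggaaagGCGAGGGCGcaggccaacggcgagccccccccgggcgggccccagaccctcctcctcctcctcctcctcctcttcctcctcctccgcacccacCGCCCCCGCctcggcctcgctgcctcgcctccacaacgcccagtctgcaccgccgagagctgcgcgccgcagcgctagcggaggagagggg
SPRY4: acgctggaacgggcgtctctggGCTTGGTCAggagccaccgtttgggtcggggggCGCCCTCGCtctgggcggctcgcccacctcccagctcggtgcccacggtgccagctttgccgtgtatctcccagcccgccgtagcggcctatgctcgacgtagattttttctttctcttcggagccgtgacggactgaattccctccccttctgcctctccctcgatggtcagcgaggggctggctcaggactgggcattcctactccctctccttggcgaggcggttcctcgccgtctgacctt
AREG: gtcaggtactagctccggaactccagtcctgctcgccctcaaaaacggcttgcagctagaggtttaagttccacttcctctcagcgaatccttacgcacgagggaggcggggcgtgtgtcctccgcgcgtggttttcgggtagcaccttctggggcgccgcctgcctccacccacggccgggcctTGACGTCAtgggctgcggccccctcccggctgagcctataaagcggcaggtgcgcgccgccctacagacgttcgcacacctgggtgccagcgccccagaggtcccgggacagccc
The EGR motif was in 2 of the 10 promoters and in 9.41% of 34943 promoters of the same length, the NRF2 element in 1 against 13.3%, and CRE in 1 against 1.84%. AP-1, ATF4/CHOP, CArG and ETS letters were in 0 of the 10, against 7.72%, 3.62%, 1.3% and 4.11% of all promoters. The promoters of the 10 genes were between 57.7% and 76.3% G and C, and the median of all promoters was 58.7%. A match says only that these letters are in the window, and the data hold no measurement of binding there.

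EGFR lies on chromosome 7 of GRCh38 from 55019017 to 55211628 on the plus strand. In DMSO replicates 1 to 5 it had 73.4, 209, 221, 225 and 234 CPM (counts scaled to a common depth, with library sizes adjusted by TMM). In SFN replicates 1 to 5 it had 145, 119.6, 135, 138 and 209.7 CPM. Of the DMSO libraries, 4 lay in a narrow band and replicate 1 lay far below them and below every SFN library, while SFN replicate 5 reached the DMSO band. The means were 192 ± 67.2 CPM in DMSO and 149 ± 35.0 CPM in SFN (SD, n = 5 each). The log2 fold change, SFN against DMSO, was -0.37 (standard error, SE, 0.28, 95% confidence interval -0.97 to 0.24), and this difference did not exceed the spread between replicates (edgeR adjusted p = 0.39). Without DMSO replicate 1 the EGFR log2 fold change was -0.58 (SE 0.13, edgeR adjusted p = 0.0031). In that comparison 23.5% of 13566 genes were significantly decreased. Over the 18 alternatives the EGFR log2 fold change was negative in 18, its adjusted p ranged from 5.96e-06 to 0.571, and it was past the threshold in 2. The other of these 2 was limma with sample quality weights, where 30.2% of all genes were significantly decreased. In bulk RNA, fewer cells that express a gene and less of its RNA per cell cannot be told apart.

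HBEGF, heparin-binding EGF-like growth factor, lies on chromosome 5 from 140332843 to 140346603 on the minus strand. It had 31.3, 46.4, 37.2, 43.1 and 38.2 CPM in DMSO replicates 1 to 5, and 51.2, 56.8, 49.4, 51.6 and 55.6 CPM in the SFN replicates. Every SFN library was above every DMSO library. Groups did not overlap for 19.9% of all genes tested, with SFN above in 8.78% and below in 11.1%, and for 5 of the 8 genes here, with SFN above. The mean rose from 39.2 ± 5.79 to 52.9 ± 3.12 CPM (SD, n = 5 each), with a log2 fold change of 0.43 (SE 0.12, edgeR adjusted p = 0.021). Without DMSO replicate 1 the HBEGF log2 fold change was 0.35 (SE 0.089, edgeR adjusted p = 0.0053). HBEGF was past the threshold in 14 of 18 alternatives. The call was lost with library size as the only scaling (log2 fold change 0.33, edgeR adjusted p = 0.13), without a low-count filter (edgeR adjusted p = 0.075), without DMSO replicate 3 (edgeR adjusted p = 0.0529) or without DMSO replicate 5 (edgeR adjusted p = 0.051), and its adjusted p ranged from 0.00142 to 0.128.

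AREG, amphiregulin, lies on chromosome 4 from 74445136 to 74455005, and EREG, epiregulin, lies upstream of it on the same chromosome and strand from 74365145 to 74388749. AREG had 90, 35, 16, 34 and 40 counts in DMSO replicates 1 to 5 and 35, 26, 32, 22 and 21 counts in the SFN replicates. DMSO replicate 1 had the highest count of all libraries, and the other libraries overlapped between the groups. The means were 2.50 ± 1.82 CPM in DMSO and 1.94 ± 0.426 CPM in SFN (SD, n = 5 each). The AREG log2 fold change was -0.36 (SE 0.42, 95% confidence interval -1.27 to 0.55, edgeR adjusted p = 0.60). It was 0.16 without DMSO replicate 1 (edgeR adjusted p = 0.67), with the sign reversed, and AREG was past the threshold in 0 of 18 alternatives, in which the adjusted p ranged from 0.33 to 0.957.

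EREG and TGFA were removed by the low-count filter. EREG had 2 counts in DMSO replicate 1 and 0 in the other DMSO libraries. It had 3, 3, 5, 1 and 0 counts in SFN replicates 1 to 5, so that counts were found in 1 of 5 DMSO and 4 of 5 SFN libraries. The summed counts were 2 in DMSO and 12 in SFN, a ratio per scaled library size of 7.58 with a 95% interval of 1.69 to 69.7 that covers counting error only. A two-sided exact permutation test of the CPM over the 10 libraries gave p = 0.087 for EREG, where the smallest p possible is 0.00794. TGFA, transforming growth factor alpha, lies on chromosome 2 from 70447284 to 70554193. It had 7, 5, 12, 12 and 7 counts in DMSO and 5, 1, 8, 13 and 1 in SFN, with overlapping groups (ratio 0.822, 95% interval for counting error 0.492 to 1.35, exact permutation p = 0.56). A difference in TGFA was not detected.

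ERRFI1 lies on chromosome 1 from 8004404 to 8026309 on the minus strand. In DMSO replicates 1 to 5 it had 51.0, 63.9, 65.9, 66.7 and 65.4 CPM, and in SFN replicates 1 to 5 195, 164, 175, 189 and 204 CPM. The lowest SFN library was more than 2-fold above the highest DMSO library, and in DMSO only replicate 1 left a narrow band. The mean rose from 62.6 ± 6.55 to 185 ± 16.0 CPM (SD, n = 5 each), a log2 fold change of 1.57 (SE 0.11, 95% confidence interval 1.33 to 1.81, edgeR adjusted p = 2.5e-06). By p-value ERRFI1 ranked 52 of the 13378 genes tested, and by size of increase it ranked 212, or 304 of 13566 without DMSO replicate 1. Its log2 fold change was between 1.47 and 1.61 in the 18 alternatives, past the threshold in each, and 1.498 without DMSO replicate 1.

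SPRY2 lies on chromosome 13 from 80335976 to 80341126 and SPRY4 on chromosome 5 from 142310427 to 142326455, both on the minus strand. SPRY2 had 17.0, 29.2, 32.4, 30.5 and 35.1 CPM in DMSO replicates 1 to 5 and 53.8, 47.6, 58.5, 59.0 and 61.6 CPM in the SFN replicates. SPRY4 was low, with 22, 220, 148, 148 and 122 counts in DMSO, which correspond to 1.37, 10.02, 8.27, 8.92 and 7.22 CPM, and 17.9, 16.6, 14.9, 18.8 and 22.0 CPM in SFN. Both Sprouty genes were higher in every SFN library than in any DMSO library, and both were lowest in DMSO replicate 1. The SPRY2 mean rose from 28.8 ± 6.98 to 56.1 ± 5.51 CPM (SD, n = 5 each), with a log2 fold change of 0.96 (SE 0.18, edgeR adjusted p = 0.0020). The SPRY4 mean rose from 7.16 ± 3.39 to 18.0 ± 2.68 CPM (SD, n = 5 each), with a log2 fold change of 1.33 (SE 0.36, edgeR adjusted p = 0.021). Both were past the threshold in all 18 alternatives, in which the SPRY2 log2 fold change lay between 0.81 and 1.04 and that of SPRY4 between 0.999 and 1.73. Without DMSO replicate 1 the log2 fold change was 0.81 for SPRY2 and 1.06 for SPRY4. The long antisense transcript SPRY4-AS1 overlaps the 5′ part of SPRY4 and had between 23 and 50 counts in a library, and whether the counting used strand is not given in the sources used here.

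SPRED2 was called and SPRED1 was not, and the difference between their responses was not tested. SPRED1, on chromosome 15 from 38252836 to 38357249, had 55.2, 75.9, 69.9, 70.5 and 78.5 CPM in DMSO replicates 1 to 5 and 75.9, 49.9, 78.3, 74.6 and 95.7 CPM in the SFN replicates. Its groups overlapped throughout, with the lowest and the highest value both in SFN. The SPRED1 log2 fold change was 0.097 (SE 0.16, 95% confidence interval -0.26 to 0.45, edgeR adjusted p = 0.73), and 0.019 without DMSO replicate 1 (edgeR adjusted p = 0.92), and its adjusted p over the 18 alternatives ranged from 0.3 to 0.991. SPRED2, on chromosome 2 from 65310851 to 65432637, had 7.78, 24.7, 23.3, 25.9 and 26.8 CPM in DMSO and 35.0, 32.8, 37.5, 37.6 and 53.7 CPM in SFN. Every SFN library was above every DMSO library, and the mean rose from 21.7 ± 7.88 to 39.3 ± 8.30 CPM (SD, n = 5 each), a log2 fold change of 0.86 (SE 0.28, edgeR adjusted p = 0.046). This call was close to the threshold and was kept in 8 of 18 alternatives. It was lost with library size as the only scaling (edgeR adjusted p = 0.11) and when any single library other than DMSO replicate 1 was left out, while without DMSO replicate 1 the log2 fold change was 0.64 with an adjusted p of 0.0015 by edgeR. Over the 18 alternatives the SPRED2 adjusted p ranged from 4.5e-05 to 0.112.

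**Figure D2:**
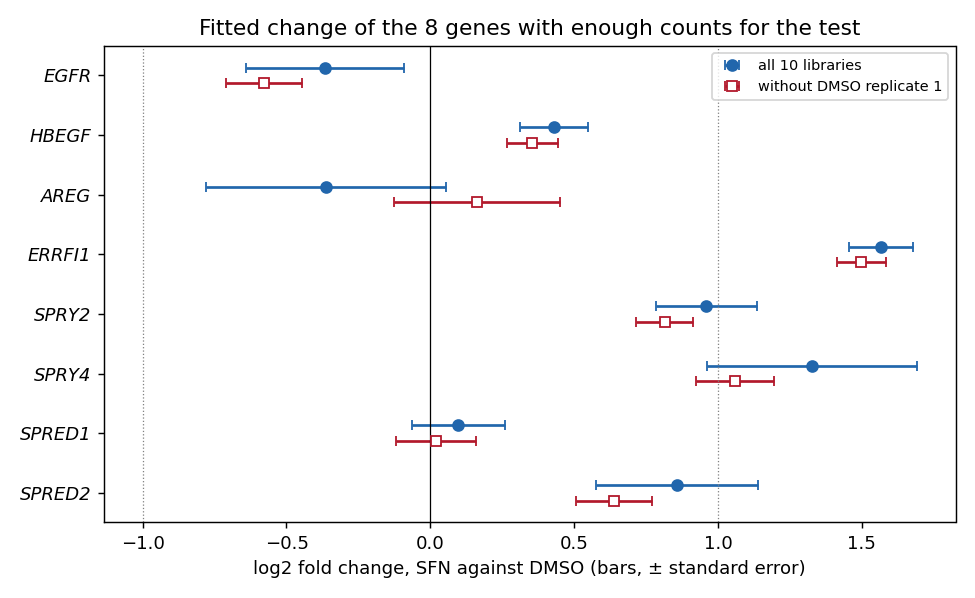
Fitted log2 fold change, SFN against DMSO, for the 8 genes tested, with bars of 1 standard error, from all 10 libraries (filled) and without DMSO replicate 1 (open). Dotted lines mark a 2-fold change. The EGFR value moved from -0.37 to -0.58 and its SE from 0.28 to 0.13, and ERRFI1 and SPRY4 stayed above 2-fold in both fits.

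Ratios of counts within a library do not depend on how libraries are scaled. The ratio of ERRFI1 to EGFR counts was 0.695 in DMSO replicate 1 and between 0.279 and 0.306 in the other DMSO libraries, and in SFN it was 1.35, 1.37, 1.29, 1.37 and 0.974. The lowest SFN ratio, in replicate 5, was above the highest DMSO ratio. The ratio of SPRED2 to SPRED1 counts had a median of 0.334 in DMSO (0.141 to 0.367) and 0.504 in SFN (0.461 to 0.657), again with no overlap. For HBEGF over EGFR the medians were 0.191 and 0.366, and for SPRY4 over SPRY2 they were 0.255 and 0.333, and for both ratios the groups overlapped. For HBEGF over EGFR the overlap came from DMSO replicate 1, at 0.427, and the other DMSO libraries were at most 0.222, below the lowest SFN library at 0.265. For SPRY4 over SPRY2 the groups also overlapped without DMSO replicate 1. These ratios are descriptions of pairs chosen with the levels known, and no test was made on them.

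**Figure D3:**
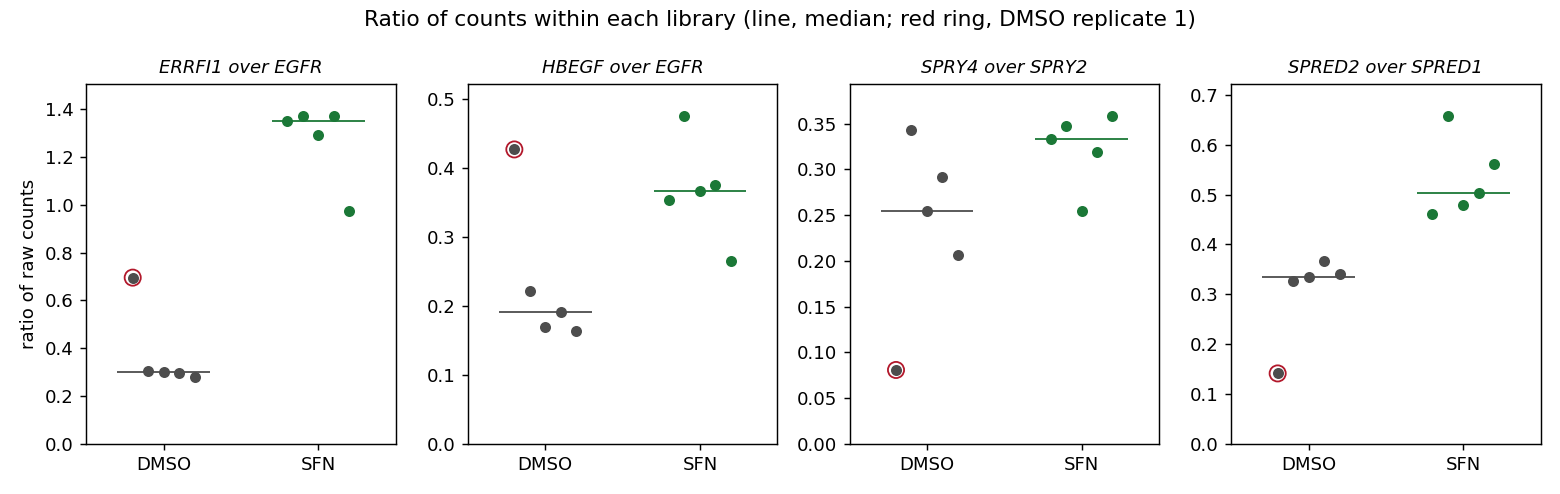
Ratio of raw counts of gene pairs within each library, with the median of each group of 5 as a line and a red ring around DMSO replicate 1. The DMSO and SFN libraries do not overlap for ERRFI1 over EGFR (at most 0.695 against at least 0.974) or for SPRED2 over SPRED1 (at most 0.367 against at least 0.461).

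The deviation of DMSO replicate 1 differed among the 10 genes. Against the mean of DMSO replicates 2 to 5 its CPM was lower by a log2 difference of -2.65 in SPRY4, -1.69 in SPRED2, -1.60 in EGFR and -0.90 in SPRY2. The difference was -0.42 in SPRED1, -0.40 in HBEGF, -0.36 in ERRFI1 and -0.22 in TGFA, and 1.70 in AREG. AREG has the shortest canonical transcript of the 10 in GENCODE 44, with 1234 bases, and EGFR the longest, with 9905 bases. SPRED1, at a log2 difference of -0.42, has 7270 bases. The part of transcript length in the results was not tested.

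**Figure D4:**
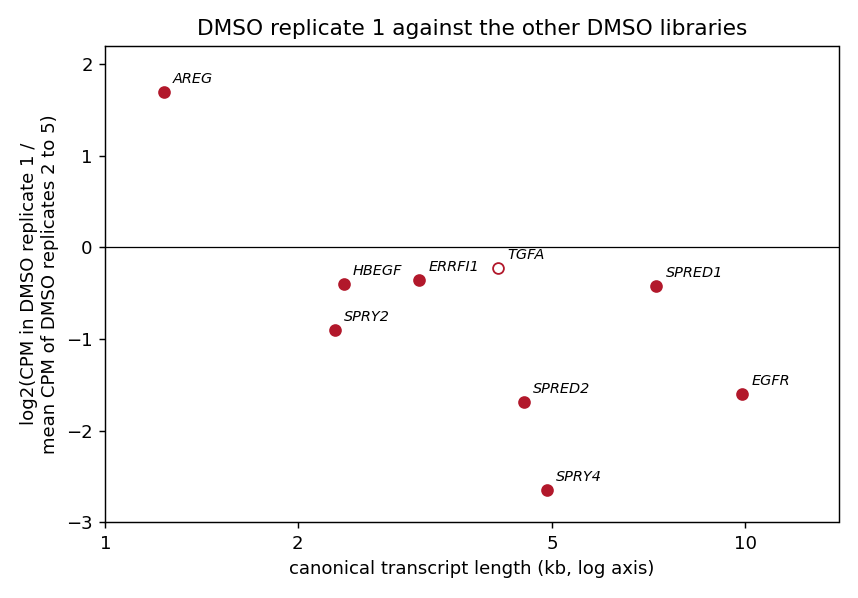
Log2 ratio of the CPM in DMSO replicate 1 to the mean of the other 4 DMSO libraries, against the length of the canonical transcript on a log axis, for 9 of the 10 genes (EREG, with 0 counts in those 4 libraries, has no ratio, and TGFA, not tested, is open). AREG at 1234 bases lies at 1.70 and SPRY4 at 4904 bases at -2.65.

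The genes around these 10 in the pathway were described from lists written by hand, and their medians are set beside the median log2 fold change of all genes tested, which was -0.028. For the 8 tested genes described above the median was 0.64. Of 7 other ligands of the EGF family, 4 were tested, with a median of -0.46, and 0 were significantly increased (0 at an unadjusted p under 0.05, and 0 by DESeq2). NRG1 and NRG2, neuregulins that bind ERBB3 and ERBB4, were significantly decreased. Of all genes tested, 9.07% were increased and 13.9% decreased, and with 4 genes tested these counts show little about the list. NRG1 went from 23.2 ± 6.16 to 15.2 ± 1.25 CPM (SD, n = 5 each; log2 fold change -0.61, SE 0.19, edgeR adjusted p = 0.037), with overlapping groups because DMSO replicate 1 was at 12.6 CPM. The call was kept in 8 of 18 alternatives for NRG1 (adjusted p 7.29e-07 to 0.129) and in 7 for NRG2 (0.00121 to 0.119), and was lost for both without DMSO replicate 2, 3, 4 or 5. Of the other ERBB receptors, ERBB2, the coreceptor of EGFR, had a log2 fold change of -0.16 (SE 0.099, edgeR adjusted p = 0.29), and ERBB3 and ERBB4 had at most 9 and 13 counts in a library.

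Of 7 genes of ligand shedding, only ADAM17, the main protease for HBEGF, AREG and TGFA precursors, was significantly changed, 1 gene increased and 0 decreased (0 decreased also at an unadjusted p under 0.05), against 9.07% and 13.9% of all genes tested. Without DMSO replicate 1 the list had 1 gene increased and 1 decreased, against 22.5% and 23.5% of all genes in that fit. With limma and sample quality weights it had 2 increased and 1 decreased, against 29% and 30.2% of all genes. ADAM17 rose from 67.6 ± 13.1 to 95.4 ± 12.04 CPM (SD, n = 5 each) with no overlap of the groups (log2 fold change 0.50, SE 0.15, edgeR adjusted p = 0.037), and its call was kept in 9 of 18 alternatives (adjusted p 8.77e-05 to 0.165). Of 21 adaptors and kinases between the receptor and ERK, 1 was significantly increased and 2 decreased, against 9.07% and 13.9% of all genes tested, and 18 were not significantly changed. KSR1, a scaffold that holds RAF, MEK and ERK together, fell from 8.84 ± 2.98 to 2.62 ± 0.877 CPM (SD, n = 5 each; log2 fold change -1.74, SE 0.31, edgeR adjusted p = 0.0019) and was lower in every SFN library than in any DMSO library. SOS2, which loads RAS with GTP, rose by 0.67, a call lost with library size as the only scaling (17 of 18 alternatives kept it, adjusted p 8.29e-06 to 0.072), and the docking protein GAB1 fell by 0.83 on the log2 scale, and the GAB1 call was kept in 9 of 18 alternatives (adjusted p 2.66e-06 to 0.148). The median of this list was 0.070. Without DMSO replicate 1, 1 gene of this list was significantly increased and 5 decreased, against 22.5% and 23.5% of all genes in that fit. With limma and sample quality weights 6 were increased and 7 decreased, against 29% and 30.2% of all genes.

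SPRED3, the third SPRED gene, also rose, from 9.56 ± 3.03 to 20.3 ± 2.99 CPM (SD, n = 5 each), with no overlap of the groups (log2 fold change 1.08, SE 0.22, edgeR adjusted p = 0.0041). SPRY1 and SPRY3 had at most 8 and 5 counts in a library and were not tested. Of 15 other tested genes that restrain or traffic EGFR, 1 was significantly increased and 3 decreased, close to the 9.07% and 13.9% of all genes tested. The median log2 fold change was -0.024. Without DMSO replicate 1, 1 was increased and 4 decreased (median -0.161), against 22.5% and 23.5% of all genes. With limma and sample quality weights 1 was increased and 8 decreased, against 29% and 30.2% of all genes. LRIG3, a transmembrane protein of the family of the EGFR inhibitor LRIG1, fell from 10.4 ± 1.05 to 4.36 ± 0.992 CPM (SD, n = 5 each; log2 fold change -1.25, SE 0.16, edgeR adjusted p = 1.9e-04). The ubiquitin ligase CBLB fell by 0.95 and SOCS5 by 0.58 on the log2 scale, and RNF41 rose by 0.41. The RNF41 call was kept in 15 of 18 alternatives and lost with library size as the only scaling, without a low-count filter and with a replicate block (edgeR adjusted p = 0.0546), over a range of 9.64e-05 to 0.0731. The CBLB call was kept in 17 of 18 and lost with quantile normalized limma-voom (2.55e-07 to 0.0607). CBLB, SOCS5, RNF41, SOS2, GAB1 and NRG2, and below IER2, ETV5, DUSP4 and LIF, were named after their values were seen.

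Of 15 genes known to be transcribed downstream of ERK, 6 were significantly increased and 2 decreased, against 9.07% and 13.9% of all genes tested, with a median log2 fold change of 0.42. The log2 fold change was 4.17 for the transcription factor EGR1 (SE 0.16), 2.26 for FOS (SE 0.25), 1.62 for the ERK phosphatase DUSP6 (SE 0.16) and 1.31 for DUSP5 (SE 0.16). For each of these genes every SFN library was above every DMSO library. FOS was low, with 7 to 9 counts in DMSO libraries and 28 to 36 in SFN libraries. EGR1 had 36 to 57 counts in DMSO libraries and 514 to 783 in SFN libraries. The ETS factor ETV5 rose by 0.87 and IER2 by 0.98, whereas the phosphatase DUSP4 fell by 0.995 and the cytokine LIF fell by 0.54. The LIF call was kept in 9 of 18 alternatives (adjusted p 2.14e-07 to 0.106). The other 7 genes of this list were not significantly changed. For increases above 2-fold, the share was 2 of 8 for the genes described above, ERRFI1 and SPRY4, and 4 of 15 in this list, against 2.94% of all genes tested. Decreases above 2-fold were 0 in both, against 5.76% of all genes tested. Without DMSO replicate 1, 8 of the 15 genes were significantly increased and 3 decreased, against 22.5% and 23.5% of all genes. With limma and sample quality weights 10 were increased and 3 decreased, against 29% and 30.2% of all genes.

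**Figure D5:**
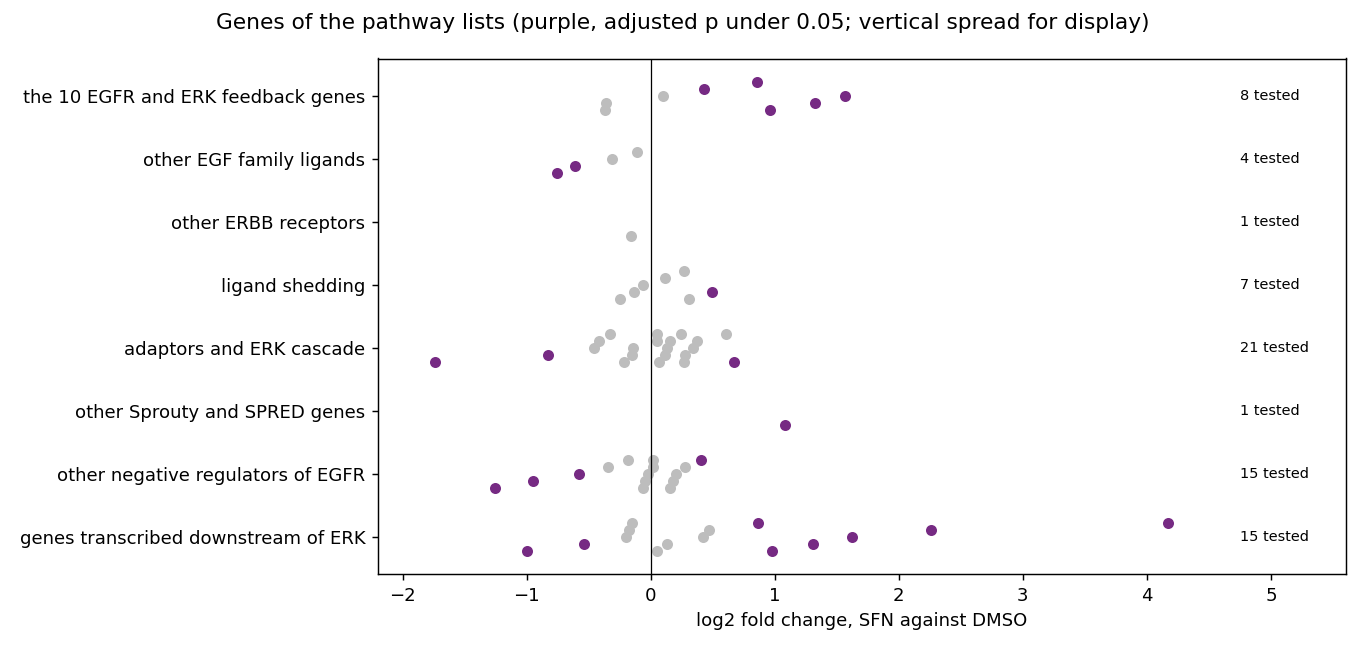
Log2 fold change, SFN against DMSO, of each tested gene of the pathway lists, 1 point per gene, purple where the edgeR adjusted p was under 0.05. The 10 genes described here, of which 8 were tested, range from -0.37 for EGFR to 1.57 for ERRFI1, and EGR1 at 4.17 is the farthest point.

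Over the 10 libraries, the genes whose log2 CPM followed ERRFI1 most closely, out of 10038 with a mean of at least 5 CPM, were PCF11, ZNF419, MXD1, DNAJB4 and HSPH1. Pearson's r was between 0.993 and 0.997. For EGFR they were TNIK, FAT1, TASOR2, NRK and FAT4, with r between 0.992 and 0.995. Without DMSO replicate 1, PCF11 and HSPH1 remained among the nearest 5 to ERRFI1 and 0 of the 5 to EGFR did. All points share the treatment and the libraries, so these are descriptions.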

How the data were processed

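RNA of DMSO-treated and SFN-treated RPE-1 cells (5 replicates each) was sequenced by the authors, as Lexogen QuantSeq libraries per the methods and by Illumina protocols per the labels. The values deposited by the authors are raw counts per Ensembl gene, not normalized, with replicates kept separate. The methods name the Bluebee pipeline and GRCh38, and the submitters' processing notes name FastQC, STAR, featureCounts and edgeR. Versions, the use of strand and of molecular identifiers are not given in the sources used here, so intervals on counts cover counting error only.

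Genes were filtered with filterByExpr, scaled by TMM and tested with glmQLFit and glmQLFTest of edgeR 4.0.16 in R 4.3.3, with Benjamini-Hochberg adjustment over all 13378 genes tested. The study's own model, limma with repeated measures that its text does not define, was not run. limma-voom on quantile normalized values (limma 3.58.1) and DESeq2 1.42.0 were alternatives. Standard errors were taken from the log2 fold change and its F statistic, as their quotient with F under a square root. Log2 CPM for correlations used a pseudocount of 0.5. The fits were tested on simulated counts with known changes. The first acceptance limit, on recovery of all changed genes by edgeR, was not met, and it was replaced after that result was seen by a limit on 4-fold changes, with no change to the fits. 4-fold changes passed it, 2-fold changes were often missed, and DESeq2 made more false calls than its nominal rate. Each gene was simulated independently, without a library that stood apart as DMSO replicate 1 did. The simulation therefore does not show how often calls are missed or false in these data. GENCODE 44 gave positions and held 28145 of the 28380 identifiers.

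The 10 genes and the pathway lists were chosen with earlier results of these data known. Named were all 10 genes, the list genes called above 2-fold or, where a list had none, its called gene with the lowest p, the ERBB, Sprouty and SPRED genes and the genes most like ERRFI1 and EGFR. NRG3, CBLC and CD3E were not analysed here. Alternatives were other scalings (RLE, library size), DESeq2, limma-voom by quantiles or with sample quality weights, other filters, a replicate block and leaving out each library. Same-numbered replicates were not treated as pairs.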

Additional observations from a re-analysis of the deposited data

Results flagged for a closer look

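The screen covered 36 genes, those given with fitted or permutation-tested values and also KRT8 and KRT18, given with counts only. For each, the distance from the highest or lowest library of a group of 5 to its nearest neighbour was divided by the range of the group. The result was above 0.71 in 19 of 72 groups. For normally distributed values chance gives about 1 in 20, and the genes share the libraries. In EREG and EPGN only 1 of 5 DMSO libraries had counts, which fixes the result at 1. Among the 19 groups, DMSO replicate 1 was the distant library in 11. It was lower than the others for EGFR (0.842, with 73.4 CPM and the nearest library at 209), ERRFI1 (0.818, 51.0 and 63.9 CPM), SPRED2 (0.818, 7.78 and 23.3 CPM), NRG1 (0.742, 12.6 and 24.5 CPM), ADAM17 (0.759, 44.7 and 68.9 CPM) and CBLB (0.844, 8.28 and 16.8 CPM). It was higher for DUSP5 (0.909, 28.6 and 17.8 CPM), DUSP6 (0.83, 12.8 and 8.43 CPM), DUSP4 (0.806, 56.0 and 36.4 CPM), KRT8 (0.72, 531 and 376 CPM) and EREG (1, from 2 counts against 0). Another DMSO library was highest for RNF41 (replicate 3, 0.792, 24.7 and 22.8 CPM), OTX2 (replicate 5, 0.733, 17.7 and 13.6 CPM) and EPGN (replicate 4, 1, from 1 count against 0).

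In SFN, replicate 5 was highest for EGFR (0.72, 209.7 and 145 CPM) and SPRED2 (0.771, 53.7 and 37.6 CPM). Replicate 2 was highest for DUSP4 (0.763, 25.2 and 19.1 CPM) and BEST1 (0.841, 107 and 33.4 CPM), and replicate 3 for LRIG3 (0.796, 6.11 and 4.14 CPM). The part of a library in these values was not tested.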

How the results depend on the processing

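ERRFI1, SPRY2 and SPRY4 were called higher in each of the 18 alternatives. The number of the 8 tested genes called higher was 5, and 3 with library size as the only scaling. With 1 library left out it ranged from 3 to 5, the lowest without DMSO replicate 3 or 5. The number called lower was 0, and 1 (EGFR) with limma-voom and sample quality weights, and it ranged from 0 to 1 with 1 library left out. Called increases above 2-fold numbered 2, and 4 with quantile normalized limma-voom, 1 with quality weights and 1 where glmTreat tested the 2-fold limit. AREG changed sign to 0.13 with quality weights, and with 1 library left out its log2 fold change ranged from -0.58 to 0.16, positive without DMSO replicate 1. SPRED1 ranged from -0.0054 without SFN replicate 5 to 0.22 without SFN replicate 2. Of the 5 genes most like ERRFI1 and EGFR, 2 and 0 were shared without DMSO replicate 1. Of 44 other list genes, 16 changed sign in some alternative, 2 of them past the threshold there. Of all genes, 3874 were called higher and 4041 lower with quality weights, and 3058 and 3193 without DMSO replicate 1, against 1214 and 1862.

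Replicate numbers are shared between the groups, and same-numbered libraries were not taken as pairs. Their deviations from the group means correlated at r = 0.555 for number 5, and the other 4 correlations ranged from -0.327 to 0.0496. SFN replicate 5 was also the closest match of DMSO replicates 2, 3 and 4. These correlations therefore cannot decide whether the numbers are pairs. With a replicate block, 911 genes were called higher and 1530 lower, and the log2 fold change was 1.57 for ERRFI1, 0.44 for HBEGF (edgeR adjusted p = 0.0401), 0.94 for SPRED2 (edgeR adjusted p = 0.0316) and -0.29 for EGFR (edgeR adjusted p = 0.478). EREG and TGFA had too few counts for the test across all genes. FOS has no value at a minimum of 10 counts in every library. The cause of these changes was not tested.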

Other observations

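EPGN, epigen, is another EGF family ligand and its gene lies in the same cluster on chromosome 4 as EREG and AREG. It had 1 count in total in the DMSO libraries and 14 in the SFN libraries, with counts in 1 of 5 DMSO and 4 of 5 SFN libraries. The ratio per scaled library size was 17.7, with a 95% interval of 2.69 to 748 for counting error only. A two-sided exact permutation test over the 10 libraries gave p = 0.048. EPGN was chosen after its values were seen and was removed by the low-count filter, and with EREG and TGFA 3 such tests were made. At these counts, levels of EREG and EPGN rest on a few reads.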
